A study of Mus musculus with 6 samples.

Results

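The 10 genes described here encode the nitric oxide, cyclic GMP (cGMP) and endothelin machinery that sets vessel tone: Nos3, Gucy1a1, Gucy1b1, Prkg1, Pde5a, Edn1, Ece1, Ednra, Ednrb and Agtr1a. They were taken by symbol from a table of 53715 genes, and each matched 1 row. RNA came from 6 libraries of cells sorted as pericytes, CD146-positive and lacking CD45 and CD31, from the gastrocnemius-soleus muscles of wild-type male C57BL/6J mice aged 14 weeks. The stimulated group (n = 3) had the lower leg muscles driven electrically through 40 contractions, 20 eccentric and 20 concentric, within about 10 minutes, and tissue was taken 3 hours later. The sham group (n = 3) was of the same strain, sex and age and received no stimulation. The comparison asks how an acute bout of contraction moves pericyte gene expression.

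Endothelial cells make nitric oxide with the enzyme encoded by Nos3. The gas diffuses into mural cells, where it switches on soluble guanylate cyclase, an enzyme of an alpha and a beta subunit (Gucy1a1 and Gucy1b1) that makes cGMP. cGMP activates the kinase encoded by Prkg1, which relaxes the cell, and the phosphodiesterase encoded by Pde5a, the target of sildenafil, breaks cGMP down. Endothelin-1 (Edn1) acts the other way: it is cut from its precursor by the membrane protease Ece1 and constricts vessels through Ednra on mural cells, while Ednrb on endothelial cells triggers nitric oxide release and clears the peptide. Agtr1a encodes the type 1a receptor for angiotensin II, another constrictor.

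The libraries held 18204991, 21004095 and 23709220 estimated reads after stimulation and 20292341, 17520338 and 21825118 in sham. The CD146 gene Mcam stood at 36.4 ± 15.6 CPM in stimulated and 69.3 ± 33.3 CPM in sham libraries (SD, n = 3 each; CPM is the count relative to the TMM-scaled library total). RNA of both antigens that the gate removes was present in every library: Ptprc (CD45) at 1020 ± 24.5 CPM in stimulated and 624 ± 373 CPM in sham, and Pecam1 (CD31) at 463 ± 101 CPM in stimulated and 850 ± 386 CPM in sham (SD, n = 3 each). All 19 endothelial and all 11 pericyte markers were lower after stimulation (medians of -1.07 and -0.93 on the log2 scale). The summed endothelial level was 3010 to 4540 CPM in stimulated and 4750 to 12100 CPM in sham libraries, with no overlap. The summed pericyte level was 160 to 386 CPM in stimulated and 324 to 684 CPM in sham libraries. Smooth muscle markers were lower in 8 of 9 (median -1.02). All 7 tested neutrophil, all 9 myofibre and all 9 lymphocyte markers were higher after stimulation (medians of 1.46, 1.04 and 0.55). Only the neutrophil sums did not overlap between the groups. Myofibre sums were 48.5, 60.3 and 171 CPM in stimulated and 30.4 to 49.9 CPM in sham libraries. Lymphocyte sums were 947 to 1230 CPM in stimulated and 140 to 1260 CPM in sham libraries. Monocyte and macrophage and fibro-adipogenic markers were each lower in 8 of 10 (medians of -0.33 and -0.4). All 4 tested satellite cell markers were higher (median 0.17). None of these marker genes was called by edgeR. The library sham 2 stood apart, with the highest endothelial and pericyte sums and a lymphocyte sum of 140 CPM, against 774 and 1260 CPM in the other sham libraries. Fewer cells of a type and less RNA per cell cannot be told apart in such samples. The part that this mixture takes in the results below was not tested. The values given below relative to the markers are descriptions only.

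Each gene was read in 2 ways. The authors' gene table holds estimated counts that follow transcript abundance per length, so a few reads on a very short transcript weigh heavily in it. The other reading adds the estimated reads of all transcripts of a gene, called summed reads here. All 10 genes passed the filter on low counts in both. With edgeR's quasi-likelihood test and Benjamini-Hochberg adjustment over 26559 genes, 0 of the 10 were called at 0.05, where 0% of all tested genes were called. At an unadjusted p under 0.05, 4 of the 10 were lower after stimulation (Gucy1a1, Edn1, Prkg1 and Ednra) and 0 were higher, beside 4.41% and 2.64% of all genes. The 10 log2 fold changes, given throughout as stimulated over sham, had a median of -0.78 and 9 were below 0, while over all genes the median was -0.02 and 52% were below 0. Every stimulated library lay below every sham library for 2 of the 10 (Gucy1a1 and Edn1) and above for 0, beside 5.89% and 6.12% of all genes. Summed reads gave 0 called (0.00377% of all genes), 6 at an unadjusted p under 0.05, all lower (5% of all genes), 10 of 10 below 0 (52.4%) and a median of -0.87. There 5 had all stimulated below all sham libraries (6.03% of all genes): these 2, Prkg1, Pde5a and Agtr1a. Without sham 2 the 4 at that unadjusted p became 1, and the 6 in summed reads became 2. Without stimulated 1 each became 2. Limma voom called 0 of all genes. DESeq2 called 0 of the 10, at 0.771% of genes called lower and 0.373% called higher. No gene of the 10 can therefore be said to have changed, and the values below describe these 6 libraries. The 10 genes were chosen with earlier results of these data known, and most of them varied together from library to library. Their counts beside the shares over all genes are thus a description and no test of the set.

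**Figure D1:**
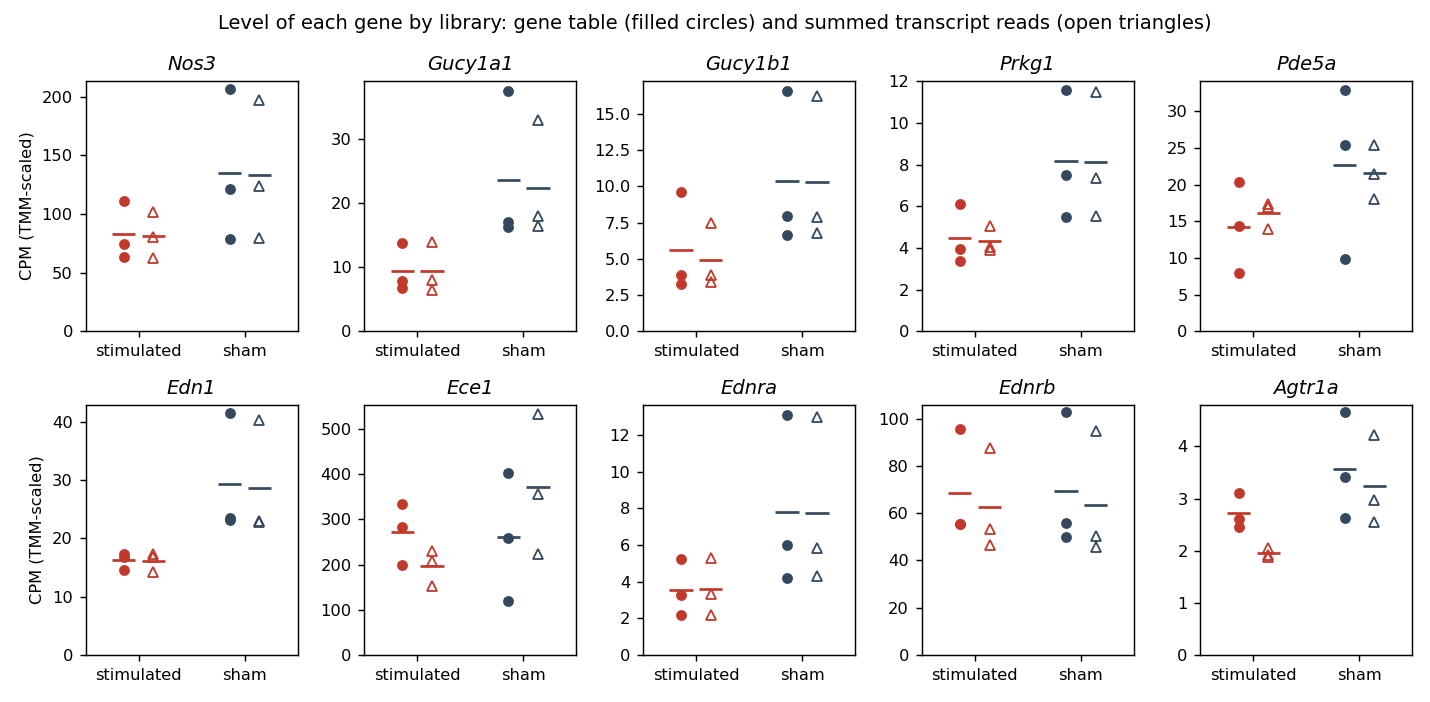
Level of each gene in every library, in CPM on linear axes from 0, with stimulated libraries left of sham libraries. Filled circles are the authors' gene table, open triangles are summed transcript reads and bars are group means (n = 3). Stimulated libraries lie below all sham libraries in both readings for Gucy1a1 and Edn1, and the 2 readings part for Ece1.

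**Figure D2:**
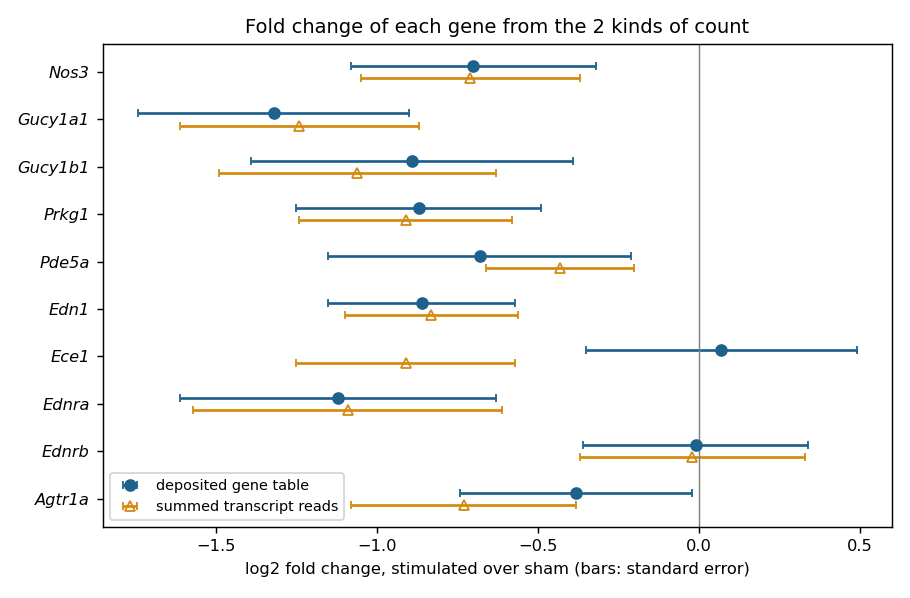
log2 fold change of each gene, stimulated over sham, with its standard error, from the authors' gene table (circles) and from summed transcript reads (triangles). Gucy1a1 has the lowest value in both, Ednrb lies near 0 in both, and Ece1 lies at 0.07 in the table and -0.91 in summed reads.

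Nos3 (chr5:24364810-24384474, plus strand), the source of nitric oxide, stood at 63.5, 74 and 111 CPM in stimulated libraries and at 78.2, 206 and 121 CPM in sham libraries. The groups overlapped, and sham 2 was the highest library. The log2 fold change was -0.70 (SE 0.38; unadjusted p = 0.099, adjusted p = 0.79 by edgeR), and -0.71 in summed reads. Leaving out each library in turn gave -0.98 (without sham 1) to -0.26 (without sham 2). The genes Gm15587 and Atg9b overlap Nos3 on the opposite strand, as other genes do for Pde5a, Prkg1 and Ece1, and whether strand was used in counting is not given in the sources used here. Of the other synthases, Nos2, the inducible form, stood at 15.9, 12.3 and 13.3 CPM after stimulation and at 23.5, 45.7 and 24.4 CPM in sham, with no overlap (log2 fold change -1.17, SE 0.32, adjusted p = 0.50 by edgeR; -1.85, SE 0.33, adjusted p = 0.32 in summed reads). Nos1, the neuronal form also found in muscle fibres, had a log2 fold change of 0.48 (SE 0.43), with overlapping groups.

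Both subunits of soluble guanylate cyclase had mean levels lower after stimulation. Gucy1a1, the alpha subunit, stood at 7.8, 6.75 and 13.7 CPM in stimulated libraries, against 17.1, 37.5 and 16.2 CPM in sham libraries. Every stimulated library lay below every sham library. The log2 fold change was -1.32 (SE 0.42; unadjusted p = 0.011, adjusted p = 0.59 by edgeR), the lowest of the 10 genes, and -1.24 (SE 0.37) in summed reads. Leaving out each library in turn kept it between -1.70 and -0.81. Gucy1b1, the beta subunit without which the enzyme has no activity, stood at 3.27, 3.89 and 9.63 CPM in stimulated libraries and at 6.62, 16.6 and 7.98 CPM in sham libraries. Stimulated 3 lay within the sham range, so the groups overlapped (log2 fold change -0.89, SE 0.50, adjusted p = 0.81 by edgeR; -1.06 in summed reads). Leaving out each library in turn gave -1.53 (without stimulated 3) to -0.37 (without sham 2). Gucy1a2, which encodes the alternative alpha subunit, had overlapping groups, at -0.33 (SE 0.36).

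The genes of the cyclase subunits are neighbours. On GRCm38, Gucy1a1 lies at chr3:82092427-82145789 and Gucy1b1 at chr3:82032006-82074689, both on the minus strand and 17737 bases apart. Their log2 CPM values had a Pearson r of 0.93 over the 6 libraries, a description only, since the same libraries and cell mixture enter both. That likeness is not particular to the pair: r was 0.96 for Gucy1a1 with Ednra and 0.95 for Gucy1b1 with Nos3, on other chromosomes. Because the 2 genes are neighbours, their RefSeq promoter windows (GRCm38.p6, 250 bases before to 50 bases after the start) are shown 5′ to 3′. The windows lie at chr3:82145601-82145900 and chr3:82074662-82074961 on the minus strand. Capitals mark the GC box GGGCGG, the letters that the transcription factor Sp1 is known to bind.
Gucy1a1: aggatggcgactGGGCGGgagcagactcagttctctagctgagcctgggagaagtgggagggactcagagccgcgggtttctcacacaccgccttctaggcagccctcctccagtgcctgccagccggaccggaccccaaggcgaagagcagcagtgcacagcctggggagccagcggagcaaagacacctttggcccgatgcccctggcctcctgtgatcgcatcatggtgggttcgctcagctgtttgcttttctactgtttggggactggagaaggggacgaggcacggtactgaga
Gucy1b1: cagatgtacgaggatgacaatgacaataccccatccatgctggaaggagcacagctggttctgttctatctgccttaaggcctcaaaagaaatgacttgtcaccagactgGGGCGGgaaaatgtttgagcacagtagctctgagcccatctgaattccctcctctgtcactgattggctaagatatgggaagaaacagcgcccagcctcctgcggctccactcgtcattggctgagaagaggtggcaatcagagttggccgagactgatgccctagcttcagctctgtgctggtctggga
The match begins 238 bases before RefSeq's start for the Gucy1a1 window and 140 bases before that for Gucy1b1. A further RefSeq window of Gucy1a1, at a downstream start, held no match. Windows were searched on both strands for the TATA box (TATAAA), the AP-1 site (TGANTCA), the GATA site (GATAA), the GC box (GGGCGG) and the CArG box. The pair held no other match. The GC box occurs in 35.7% of the 32851 mouse windows, so sharing it is common.

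Within Gucy1a1, the transcripts took unequal shares of the reads in the groups, given here without a test. A transcript annotated as retaining an intron (ENSMUST00000191942.1) took 44.5, 18.5 and 23.2% of the gene's estimated reads in stimulated libraries and 17.3, 12.6 and 9.58% in sham libraries. The stimulated shares all lay above the sham shares, though stimulated 2 and sham 1 were 18.5% and 17.3%. The main coding transcript (ENSMUST00000048976.7) took 41.5, 69.3 and 59.9% after stimulation and 68.8, 75.7 and 80.2% in sham, where the groups overlapped. ENSMUST00000193924.5, with the same coding length of 2073 bases and another start, took 7.24, 9.47 and 11.9% after stimulation and 6.66, 5.39 and 6.34% in sham. There all stimulated shares lay above all sham shares, on 8.8, 15 and 38 estimated reads after stimulation and 24.9, 32.8 and 21.6 in sham. At 7.34% of the gene's reads over all libraries, it is not among the transcripts set beside a background below. The gene had 122 to 320 estimated reads per stimulated library and 340 to 608 per sham library.

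Downstream of the cyclase, the kinase gene Prkg1 (chr19:30564489-31765033, minus strand) stood at 3.95, 6.11 and 3.36 CPM in stimulated libraries, against 7.51, 11.6 and 5.46 CPM in sham libraries. The groups overlapped through stimulated 2 (log2 fold change -0.87, SE 0.38, unadjusted p = 0.049, adjusted p = 0.71 by edgeR). In summed reads they did not overlap, at 3.91, 5.03 and 4.03 CPM after stimulation and 7.38, 11.5 and 5.52 CPM in sham (-0.91, SE 0.33, adjusted p = 0.59 by edgeR). Prkg1 makes kinase forms that differ at the amino-terminal end, which sets what the kinase binds. The transcript with 2013 coding bases took 42.7, 16 and 39.7% of the reads after stimulation and 48.6, 17 and 28.1% in sham. Its coding length is that of the annotated version (ENSMUST00000065067.13, 6976 bases). The reads were counted on another version (ENSMUST00000065067.12, 3914 bases). The transcript with 2058 coding bases took 30.4, 45.7 and 49.5% after stimulation and 24.6, 61.7 and 51.4% in sham. Both varied more within than between groups, at 75 to 100 estimated reads per stimulated library and 104 to 213 per sham library. Prkg2, the kinase of gut and bone, stood at a log2 fold change of 0.14 (SE 0.40; -0.25, SE 0.38 in summed reads).

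Pde5a (chr3:122728947-122859374, plus strand), which breaks cGMP down, stood at 8.01, 14.3 and 20.3 CPM after stimulation and at 9.91, 32.9 and 25.4 CPM in sham, with overlapping groups (-0.68, SE 0.47, adjusted p = 0.88 by edgeR). The table follows TPM, of which a 418-base transcript (ENSMUST00000199253.1) held 0, 36 and 54.8% after stimulation and 0, 58.4 and 54.4% in sham. That transcript had 0 to 19.7 estimated reads per library. Summed reads spread less, at 13.9, 17 and 17.3 CPM after stimulation and 18.1, 25.4 and 21.4 CPM in sham. There every stimulated library lay below every sham library, by a smaller step (-0.43, SE 0.23, adjusted p = 0.76 by edgeR).

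On the endothelin side, the peptide gene Edn1 (chr13:42301476-42307990, plus strand) stood at 16.8, 17.4 and 14.5 CPM in stimulated libraries, against 23.2, 41.6 and 23.5 CPM in sham libraries. The stimulated libraries lay close together and below all sham libraries. The log2 fold change was -0.86 (SE 0.29; unadjusted p = 0.017, adjusted p = 0.62 by edgeR). It was -0.83 (SE 0.27) in summed reads and, with each library left out in turn, -1.01 (without sham 1) to -0.52 (without sham 2). Edn1 has 1 annotated transcript, so the 2 readings differ little. An antisense gene, Gm47118, overlaps it. Its promoter window (chr13:42301226-42301525, plus strand) is shown because Edn1 is the ligand on which the branch turns and because it holds the only match other than a GC box among the windows printed. Capitals mark GATAA read on the minus strand, the letters known to be bound by GATA factors, beginning 8 bases after the start.
Edn1: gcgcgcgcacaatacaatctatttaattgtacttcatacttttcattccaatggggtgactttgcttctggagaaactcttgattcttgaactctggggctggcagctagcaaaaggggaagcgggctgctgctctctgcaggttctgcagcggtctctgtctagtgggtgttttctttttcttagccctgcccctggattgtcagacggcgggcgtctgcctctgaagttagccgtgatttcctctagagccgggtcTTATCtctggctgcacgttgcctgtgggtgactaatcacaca
GATAA on either strand occurs in 25.4% of all windows, and the Edn1 window held none of the other motifs searched. Edn3, another endothelin peptide gene, had a log2 fold change of -0.78 (SE 0.65) at means of 0.555 CPM after stimulation and 0.964 CPM in sham. Edn2 did not pass the filter, with 1 to 7 summed reads per stimulated library and 0 to 9 per sham library.

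Ece1 (chr4:137862237-137965229, plus strand), the enzyme that releases endothelin-1 from its precursor, differed between the readings, near 0 in one and lower in the other. In the authors' gene table it stood at 283, 200 and 335 CPM in stimulated libraries and at 120, 403 and 259 CPM in sham libraries, a log2 fold change of 0.07 (SE 0.42, adjusted p = 1 by edgeR). In summed reads it stood at 153, 208 and 230 CPM after stimulation and at 223, 533 and 357 CPM in sham. Stimulated 3 and sham 1 then overlapped at 230 and 223 CPM (-0.91, SE 0.34, unadjusted p = 0.025, adjusted p = 0.60 by edgeR). The table's sign also turned when a library was left out, to -0.11 without stimulated 3 and -0.28 without sham 1, while summed reads stayed between -1.14 and -0.59.

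The readings weigh a single short transcript differently. ENSMUST00000130407.2 is 172 bases long and has 2 exons, with 85 UTR and 87 coding bases, and each library's table gives it an effective length of 7 bases. It held 14, 8 and 17 estimated reads in stimulated libraries and 2, 11 and 8 in sham libraries, of 2927 to 5260 Ece1 reads after stimulation and 5076 to 9861 in sham. As a share of Ece1 reads this was 0.478, 0.194 and 0.323% in stimulated libraries and 0.0394, 0.112 and 0.119% in sham libraries. As a share of Ece1 abundance in TPM (reads divided by effective length and scaled to the library) it was 79.3, 54.7 and 69.3% in stimulated libraries and 22.6, 43.7 and 45.9% in sham libraries. The full-length transcript of 4816 bases (ENSMUST00000102518.9) held at least 97.6% of the reads in every library.

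The coding part of the short transcript, which starts with the start codon in capitals, lies at chr4:137913768-137913854 on the plus strand and is shown because this transcript holds that share of the TPM.
Ece1: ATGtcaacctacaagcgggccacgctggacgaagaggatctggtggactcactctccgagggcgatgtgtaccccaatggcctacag
All 87 of these bases also occur in the full-length transcript, and the longest run that both share is 88 bases, positions 85 to 172 of the short one. A read lying within that run matches both transcripts. Ece2, a related protease, had a log2 fold change of 0.30 (SE 0.53).

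**Figure D3:**
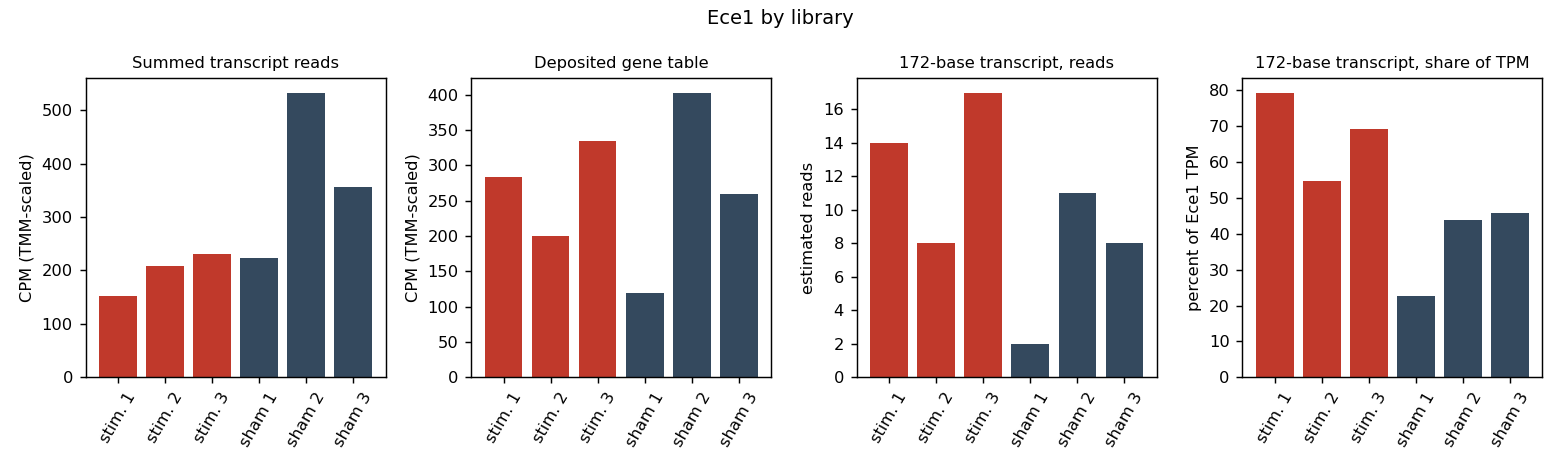
Ece1 in each library (stimulated 1 to 3 in red, left; sham 1 to 3 in dark blue, right): CPM from summed transcript reads, CPM from the authors' gene table, estimated reads of the 172-base transcript, and that transcript's percentage of Ece1 TPM. All axes are linear from 0. The 2 to 17 reads of the short transcript make up 22.6 to 79.3% of the TPM.

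Of the receptors, Ednra (chr8:77663031-77724464, minus strand), which mediates constriction, stood at 3.27, 2.17 and 5.22 CPM in stimulated libraries, against 4.22, 13.1 and 5.99 CPM in sham libraries. Stimulated 3 overlapped the sham range, and sham 2 lay above every other library (log2 fold change -1.12, SE 0.49, unadjusted p = 0.049, adjusted p = 0.71 by edgeR). With each library left out in turn it was -1.51 (without stimulated 3) to -0.51 (without sham 2). Ednra rested on 43 to 121 estimated reads per stimulated library and 98 to 241 per sham library, and the gene 4933431K23Rik overlaps it on the opposite strand.

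Ednrb (chr14:103814625-103844402, minus strand) had the log2 fold change nearest to 0 in both readings. It stood at 55.2, 55.3 and 95.5 CPM in stimulated libraries and at 49.8, 103 and 55.9 CPM in sham libraries, each group with 1 high library (log2 fold change -0.01, SE 0.35, adjusted p = 1 by edgeR; -0.02 in summed reads, on 922 to 2001 reads per stimulated and 861 to 1750 per sham library). Its transcripts took unequal shares of the reads in the groups. The 4107-base transcript with the upstream start (ENSMUST00000022718.10) took 25.8, 32.3 and 33% of Ednrb reads in stimulated libraries and 48.3, 48.4 and 50.7% in sham libraries. The mean share was 30.4 ± 3.96% in stimulated and 49.1 ± 1.37% in sham libraries (SD, n = 3 each), a difference of -18.8 percentage points with no overlap. The 3989-base transcript (ENSMUST00000172237.1) took 56.4, 44.2 and 59.4% after stimulation and 45, 40.4 and 34.8% in sham, where stimulated 2 and sham 1 overlapped. The third, of 2669 bases, took 7.6 to 23.4% after stimulation and 6.7 to 14.5% in sham.

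All 3 Ednrb transcripts carry the same coding blocks of 1326 bases, and the first 2 start 706 bases apart, so these shares describe start sites and UTRs and not the receptor protein. With 3 libraries a group, the smallest two-sided p of an exact permutation test is 0.1, and none was run. Among the 16 transcripts that hold at least 10% of a member's reads, leaving out single-transcript Edn1, this was the 1 with all stimulated shares below all sham shares, and the retained-intron transcript of Gucy1a1 the 1 with all above. Over 32854 transcripts measured the same way, 4.87% lay below and 5.24% above, so that 1 of 16 each way is near the background. RefSeq's window for Ednrb (chr14:103843652-103843951, minus strand) lies near the downstream start, within the span of the upstream-start transcript. It is shown because the 2 starts differ in their shares, and it held none of the motifs searched, so no base is in capitals.
Ednrb: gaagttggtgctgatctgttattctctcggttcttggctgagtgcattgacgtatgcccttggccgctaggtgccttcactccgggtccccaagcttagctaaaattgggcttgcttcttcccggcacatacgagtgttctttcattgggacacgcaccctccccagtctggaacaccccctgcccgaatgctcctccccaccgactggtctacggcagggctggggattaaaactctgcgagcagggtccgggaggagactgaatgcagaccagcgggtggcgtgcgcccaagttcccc

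**Figure D4:**
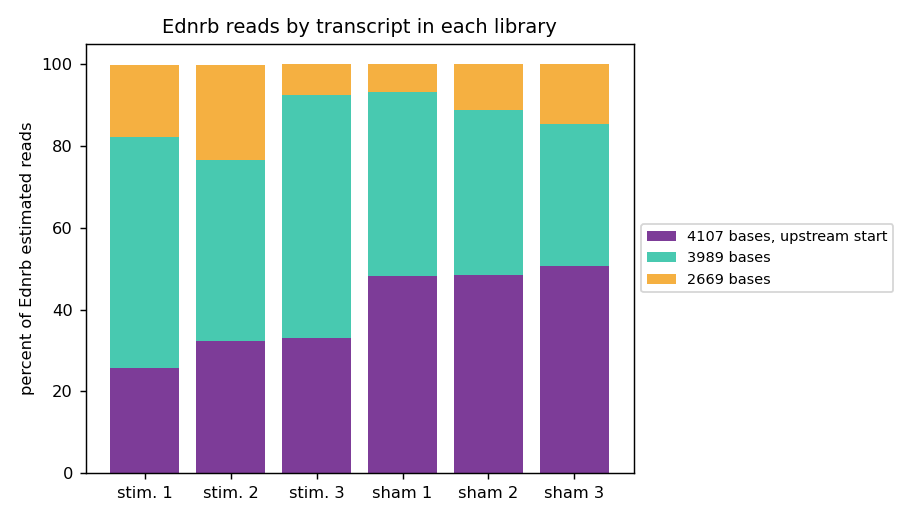
Share of Ednrb estimated reads on each of its 3 transcripts, in percent, stacked to 100% for each library, with stimulated libraries left of sham libraries. The 4107-base transcript with the upstream start (bottom) takes 25.8 to 33% in stimulated and 48.3 to 50.7% in sham libraries.

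Agtr1a (chr13:30336441-30382867, plus strand), the angiotensin II receptor, had the lowest mean CPM of the 10, at 3.11, 2.46 and 2.61 CPM in stimulated libraries and 2.62, 4.66 and 3.41 CPM in sham libraries, with overlapping groups (log2 fold change -0.38, SE 0.36, adjusted p = 0.95 by edgeR). A 445-base transcript (ENSMUST00000223201.1) held 73.4, 79.7 and 66.6% of the gene's TPM in stimulated libraries and 76.2, 70.6 and 53.9% in sham libraries, with overlapping groups. In summed reads the libraries stood at 1.88, 1.91 and 2.06 CPM after stimulation and at 2.55, 4.22 and 2.97 CPM in sham, without overlap (-0.73, SE 0.35, unadjusted p = 0.063, adjusted p = 0.70 by edgeR). That rests on 36 to 47 reads per stimulated library and 56 to 78 per sham library. Agtr1b and Agtr2, the other angiotensin II receptors, did not pass the filter.

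Per kilobase of the main transcript, the summed reads put the genes in the order Ece1, Nos3, Ednrb, Edn1, Gucy1a1, Pde5a, Gucy1b1, Prkg1, Ednra and Agtr1a by the mean of all 6 libraries. Ece1 stood at 40.9 ± 8.3 CPM per kilobase in stimulated and 77 ± 32.3 in sham libraries, and Nos3 at 19.7 ± 4.8 in stimulated and 32.3 ± 14.4 in sham libraries (SD, n = 3 each). At the low end, Ednra stood at 0.993 ± 0.437 CPM per kilobase in stimulated and 2.13 ± 1.29 in sham, and Agtr1a at 0.886 ± 0.0435 in stimulated and 1.48 ± 0.395 in sham (SD, n = 3 each). The ranges over the 6 libraries overlapped for every pair of neighbours in this order. Within each library, though, Ece1 lay above Nos3, Nos3 above Ednrb, Ednrb above Edn1 and Edn1 above Gucy1a1. From Gucy1a1 down, each pair of neighbours changed order in some library. Nos3, Edn1 and Ednrb, known chiefly from endothelial cells, and the widely expressed Ece1 had higher mean levels than the cyclase, kinase, phosphodiesterase and constrictor receptor genes known from mural cells.

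Most of the 10 genes varied with the endothelial and pericyte markers from library to library. Pearson's r of log2 CPM with the mean of the 19 markers was 0.95 for Nos3, 0.94 for Ednra, 0.93 for Gucy1a1, 0.90 for Gucy1b1, 0.89 for Edn1, 0.85 for Pde5a and Agtr1a, 0.69 for Prkg1, 0.57 for Ednrb and 0.45 for Ece1 (n = 6; a description, since all share the libraries). Over all genes tested the median r was -0.03. In summed reads Ece1 reached 0.99 and Ednrb stayed at 0.51. With the mean of the 11 pericyte markers r was 0.99 for Gucy1b1, 0.97 for Gucy1a1, 0.92 for Nos3 and Ednra, 0.79 for Pde5a, 0.75 for Edn1, 0.69 for Ednrb, 0.63 for Agtr1a, 0.61 for Prkg1 and 0.34 for Ece1.

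Against those markers the subtraction itself raises the values, since the marker mean was 1.02 lower after stimulation. The log2 CPM minus the mean log2 CPM of the endothelial markers differed between the groups (stimulated minus sham) by a median of 1.03 over all genes tested and 0.30 over the 10 genes. In summed reads these medians were 1.02 over all genes and 0.20 over the 10 genes. Below 0 lay 2 of the 10 in each reading, beside 3.77% of all genes and 3.13% in summed reads. In the table these were Gucy1a1 at -0.25 and Ednra at -0.01, both with overlapping groups. In summed reads they were Gucy1a1 at -0.24 and Gucy1b1 at -0.02, again with overlapping groups. Ednrb stood at -0.70, -0.84 and -0.44 in stimulated libraries and at -1.41, -1.76 and -1.90 in sham libraries, a difference of 1.03 with no overlap (1.01 in summed reads), which is that of the median gene. Nos3 stood at -0.50, -0.42 and -0.22 after stimulation and at -0.76, -0.75 and -0.79 in sham, a difference of 0.39 with no overlap (0.37 in summed reads). For Ece1 the difference was 1.22 in the table and 0.17 in summed reads, and for Agtr1a it was 0.68 and 0.33. On this scale 4 of the 10 had all stimulated above all sham libraries in the table and 3 of the 10 in summed reads, beside 40.6% and 41.9% of all genes tested.

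Against the pericyte markers, Ednrb stood at 3.48, 3.20 and 3.03 in stimulated libraries and at 2.19, 2.23 and 2.35 in sham libraries (difference 0.97; 0.96 in summed reads), beside a median of 0.97 over all genes in both readings. There 2 of the 10 genes and 18.3% of all genes had every stimulated above every sham library (1 of the 10 and 25.3% in summed reads). In summed reads Gucy1a1 stood at 0.42, 0.35 and 0.38 after stimulation and at 0.56, 0.72 and 0.73 in sham, a difference of -0.28 with no overlap. In the table that difference was -0.31 and the groups overlapped. The share of all genes with every stimulated below every sham library on this scale was not counted. A difference below 0 was seen for 2 of the 10 genes and 4.3% of all genes (3 of the 10 and 3.67% in summed reads).

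**Figure D5:**
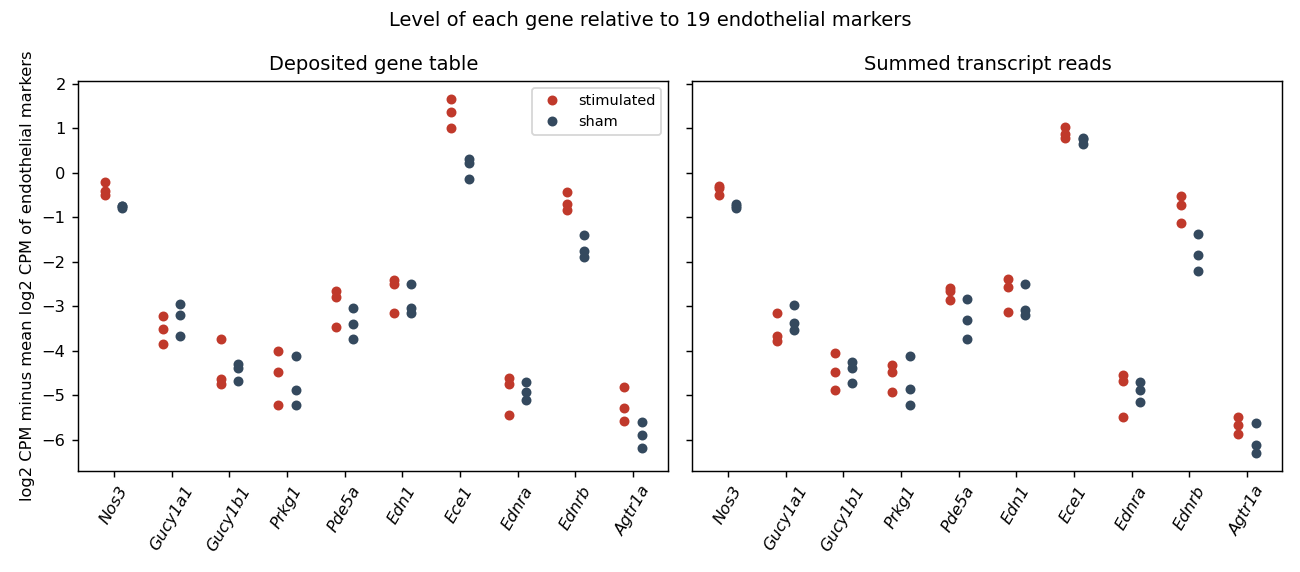
log2 CPM of each gene minus the mean log2 CPM of 19 endothelial markers, for each stimulated library (red, left) and sham library (dark blue, right), from the authors' gene table and from summed transcript reads. Ednrb, Nos3 and Ece1 have every stimulated library above every sham library in both panels. The mean differences are 1.03, 0.39 and 1.22 in the table, where the median over all genes is 1.03. In summed reads they are 1.01, 0.37 and 0.17, where that median is 1.02.

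Of 48 further genes of nitric oxide, cGMP, endothelin and angiotensin signalling, 41 were tested and 0 were called. Of the 41, 31 had a log2 fold change below 0 and the median was -0.34, beside 52% and -0.02 over all genes. At an unadjusted p under 0.05, 8 were lower and 1 was higher, beside 4.41% and 2.64% of all genes. Npr1, the receptor of atrial natriuretic peptide and a guanylate cyclase in its own right, stood at 48.3, 46.9 and 58.2 CPM in stimulated libraries, against 75, 163 and 126 CPM in sham libraries. Its groups did not overlap (-1.25, SE 0.31, adjusted p = 0.45 by edgeR), and it was the 1 pathway gene that DESeq2 called lower, at an adjusted p of 0.033. DESeq2 called 0.771% lower of the 19835 genes to which it gave an adjusted p. Npr2, the receptor of C-type natriuretic peptide, stood at a log2 fold change of -0.97 (SE 0.38) and Npr3, which clears these peptides, of -1.45 (SE 0.47).

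Cav1, the caveolae protein that holds the endothelial synthase inactive, stood at 173, 208 and 345 CPM in stimulated libraries, against 405, 1030 and 530 CPM in sham libraries, without overlap (-1.43, SE 0.42, adjusted p = 0.54 by edgeR). Enpep, an aminopeptidase that trims angiotensin II, stood at a log2 fold change of -1.47 (SE 0.40), Ddah2 of -0.87 (SE 0.35) and Nostrin, which binds the endothelial synthase, of -0.90 (SE 0.35). Nostrin's value was -0.16 in summed reads. Arg2, an arginase that draws on the same arginine as the synthases, went the other way, at 4.9, 3.01 and 2.25 CPM in stimulated libraries and 0.8, 1.3 and 2.15 CPM in sham libraries (1.26, SE 0.49, adjusted p = 0.67 by edgeR). Stimulated 3 and sham 3 were nearly level, at 2.25 and 2.15 CPM.

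The genes whose log2 CPM was most like that of each member over the 6 libraries were sought among 13797 genes whose log2 CPM averaged 1 or more. For Nos3 they were Clstn1, Sestd1 and Pacsin3 (Pearson r of 0.999, 0.999 and 0.998) and for Gucy1a1 Cav2, Plscr4 and Arhgap29 (0.999, 0.998 and 0.997). For Gucy1b1 they included Rgcc and Clock (0.996 and 0.994). Edn1 was most like Serpinb6a, Cyb5r1 and Cpped1 (0.999, 0.99 and 0.988), Ednra like Magi1, Fbxo30 and Fzd8 (0.996, 0.995 and 0.993), and Pde5a like Pnpla2, Prmt2 and Smtn (0.997, 0.995 and 0.994). Values were lower for Prkg1, with Masp1, Trp53i13 and Ltb4r1 (0.981, 0.979 and 0.979), and for Ednrb, with Cmpk1, Thrb and Rabgap1 (0.986, 0.983 and 0.983). Agtr1a was most like Pdia5, Phospho1 and Gstt1 (0.994, 0.994 and 0.993) and Ece1 like Sept9, BC031181 and Nr1h3 (0.992, 0.986 and 0.985). With 6 libraries and so many genes, such values describe likeness only.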

How the data were processed

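Total RNA from 6 libraries (3 stimulated, 3 sham; groups and numbers from the sample titles) had been made into stranded low-input libraries, per the labels' protocols. Tools listed in the submitters' processing notes are Salmon 0.8.2, Trimmomatic 0.36, bcl2fastq 2.17.1.14, edgeR and R 3.5.1, on GRCm38; their settings are not given in these sources. Deposited were estimated counts per gene (53715 genes) and, per the file headers, TPM, estimated reads and lengths per transcript (135181 transcripts). The table's value for each of the 10 genes, divided by its TPM and scaled per library, stayed within 99.7 to 101% of its mean: the table follows TPM, not read sums.

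Estimated counts were rounded, filtered (filterByExpr, minimum count 10, total 15; 26559 genes kept), scaled by TMM and tested with edgeR 4.0.16 (R 4.3.3), robust quasi-likelihood, stimulated against sham, with Benjamini-Hochberg adjustment. The common biological coefficient of variation was 0.398. log2 CPM used a prior count of 2. Alternatives were DESeq2 1.42.0, limma 3.58.1 voom, RLE factors, other filters, a block for the replicate number, leaving out single libraries, and summed reads; leaving out libraries in summed reads was added after seeing the data. The members and lists were chosen with earlier results of these data known. Named are the members, their paralogs, the 8 other pathway genes with the smallest p, the 3 genes most like each member, and the gate genes; 1 gene under this rule is not reported here. Coordinates are from GENCODE M21. RefSeq windows matched 8 of the 10 genes. Libraries differed far beyond counting noise. Each library is described as a separate mouse only by the stated group sizes, so p-values measure the spread between these samples.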

Additional observations from a re-analysis of the deposited data

How the results depend on the processing

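No setting called any of the 10 genes. Over all genes DESeq2 called 74 higher and 153 lower and 1 pathway gene (Npr1), leaving out the filter gave 44 higher and 65 lower, RLE factors gave 3 higher, and summed reads 1 higher; leaving out a library gave 0 to 1 higher. The 4 members lower at an unadjusted p under 0.05 became 2 with limma voom and 2 with a filter of 1 CPM in 3 libraries. Leaving out a library gave 1 to 5 (1 without sham 2, 2 without stimulated 1), and in summed reads 2 to 8, against 6 with all libraries (8 without sham 1, 2 without sham 2 or stimulated 1). For the pathway lists the 12 lower became 7 to 15 without a library (7 without sham 2), 8 to 20 in summed reads, and the 1 higher became 2 in summed reads and 0 to 2 without a library. No pairing by replicate number is stated, and the correlations of same-numbered deviations (0.32, -0.16 and 0.13) cannot decide whether there was one. With the replicate block, 3 members were lower and 0 pathway genes higher at that p, and 0 were called. Ednrb, at -0.01, turned to 0.02 with DESeq2, 0.01 with voom, 0.02 with RLE, 0.06 without the filter and 0.01 with the block, and ranged from -0.33 to 0.39 without a library (-0.35 to 0.35 in summed reads). Ece1 turned to -0.91 in summed reads, and ranged from -0.28 to 0.52 without a library and from -1.14 to -0.59 in summed reads. Relative to endothelial markers, summed reads moved Agtr1a to 0.33 and Ece1 to 0.17, and relative to pericyte markers Ece1 to 0.12. Across alternatives, 176 of 190 fold changes kept their sign and their side of the threshold. Depth limits genes such as Prkg1, Ednra and Agtr1a, with 36 to 241 estimated reads per library.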
